A study of Mus musculus with 18 samples.

Results

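Orbital and dorsal frontal tissue of newborn double mutants of Rxrg and Rarb was compared across all genes. The 6 libraries of this comparison, 3 labelled orbital and 3 labelled dorsal, are those that the labels give as RXRg, RARb double mutant (dKO) from these regions, out of 18 libraries in the series. Each orbital library was paired with the dorsal library that shares its title prefix and index row. All groups are mice at postnatal day 0. The dKO groups carry mutations in both receptor genes, and the control groups are labelled only as control, without a genotype. The study dissected medial frontal, motor and orbitofrontal tissue from frozen brains and made low-input, whole-transcript RNA libraries. Which of these tissues the dorsal samples are, the altered exons, sex, litter, the number of animals and whether the libraries of a row came from a single brain are not given in the labels, and p-values here describe the spread among these libraries, which may be technical.

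Retinoic acid is made from vitamin A in steps that end with retinaldehyde dehydrogenases, and it acts through pairs of a retinoic acid receptor (RAR) and a retinoid X receptor (RXR) that sit on DNA and switch target genes on or off. In the newborn brain the meninges are a main source of it, and CYP26 enzymes break it down locally. In the frontal cortex it is known for its part in setting apart prefrontal and motor territories. Orbital cortex lies at the ventral front of the cortical sheet, next to the olfactory areas and above the basal forebrain.

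The dKO orbital libraries held 52788115, 31125693 and 31899683 counted fragments in rows 1, 2 and 3, and the dKO dorsal libraries held 58941490, 39158792 and 31844102. Levels are given as CPM, counted fragments per 1e+06, in row order. Row 1 has a title prefix of its own (RAR), and rows 2 and 3 share the other (RXR). Rarb had 4.85, 3.15 and 2.29 CPM in dKO orbital and 3.10, 2.25 and 2.26 CPM in dKO dorsal libraries, against 7.39, 13.9 and 6.20 CPM in control orbital and 3.497, 5.53 and 5.29 CPM in control dorsal libraries. In both regions every dKO library was below every control library for Rarb. Rxrg had 2.90, 1.61 and 0.408 CPM in dKO orbital and 1.05, 1.33 and 0.691 CPM in dKO dorsal libraries, against 2.35, 21.4 and 4.01 CPM in control orbital and 1.64, 30.5 and 3.37 CPM in control dorsal libraries. For Rxrg the genotypes overlapped in orbital tissue and not in dorsal tissue. Since the altered exons are not given, a remaining count does not show a remaining protein. Xist and the Y-linked Ddx3y gave the same pattern in both libraries of every dKO row. Rows 1 and 3 had Xist at 9.45 to 31.4 CPM with Ddx3y at or below 0.126 CPM, and row 2 had Xist at 0 with Ddx3y at 104 and 119 CPM. The control orbital and dorsal libraries all had Ddx3y at 58.3 to 80.3 CPM with Xist at or below 0.0608 CPM, so comparisons of dKO with control pups set groups of different sex make-up side by side, and the part of sex in them was not tested.

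In dKO pups 279 of 17231 genes tested differed between orbital and dorsal tissue (1.62%; edgeR quasi-likelihood test with the row as a block, Benjamini-Hochberg adjusted p under 0.05). Of these, 107 were higher in orbital tissue (0.621%) and 172 were lower (0.998%), and 97 differed at least 2-fold, 47 of them higher and 50 lower. The median difference of the called genes was 0.83 on the log2 scale, taken without its sign. Over all genes tested the median signed difference was 0.0056, which is another measure and not to be set against the first. All 279 had the same sign in the 3 pairs. For 206 of them the 3 orbital libraries did not overlap the 3 dorsal ones, where over all genes tested 5.67% had all orbital libraries above and 3.23% had all below. Of the 279 genes, 6 were X-linked, of 571 X-linked genes tested. An unadjusted p under 0.05 was reached by 2289 genes (13.3%). The count of called genes rests on the pairing, since 1 gene, Neurod1, was called without the row as a block. It was 74 without row 1, 566 without row 2 and 474 without row 3, and 71 of the 279 genes were called in each of these 3 fits.

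**Figure D1:**
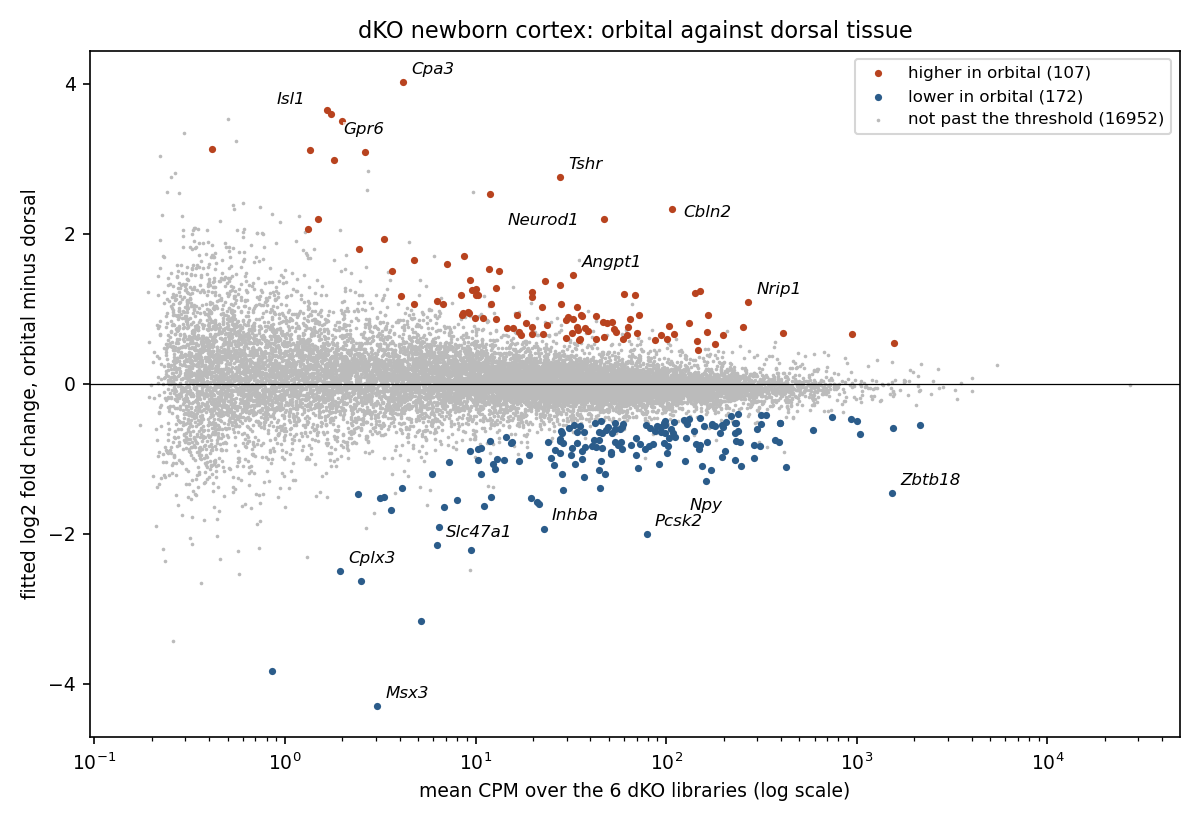
Fitted log2 fold change of orbital minus dorsal tissue in dKO pups (y axis) against the mean CPM of the 6 libraries (x axis, log scale), 1 point a gene. The 107 genes higher and 172 genes lower in orbital tissue are coloured, and Neurod1, Tshr and Cbln2 stand above 2 while Pcsk2, Inhba and Msx3 stand near or below -2.

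Neurod1, a transcription factor of newly made excitatory neurons, had the lowest p of all genes and was higher in orbital tissue. It had 86.6, 65.6 and 79.7 CPM in dKO orbital libraries, against 17.7, 13.2 and 18.7 CPM in dKO dorsal libraries. The groups lay far apart, with a log2 fold change of 2.19 ± 0.10 (SE, adjusted p = 0.000233). Its gene lies on chromosome 2, from 79452521 to 79456751 (GRCm38, minus strand). Medial dKO tissue had 38.0 ± 14.1 CPM of Neurod1 (SD, n = 3), between the other regions.

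Of the other genes with the lowest p among those higher in orbital tissue, Angpt1, a ligand of the endothelial receptor Tie2, had 38.7, 47.2 and 58.7 CPM in dKO orbital and 15.5, 15.9 and 19.6 CPM in dKO dorsal libraries (log2 fold change 1.45 ± 0.11, adjusted p = 0.00219). March1, a membrane ubiquitin ligase, had 102, 93.7 and 93.4 CPM in orbital and 44.0, 42.9 and 37.5 CPM in dorsal libraries (1.18 ± 0.09, adjusted p = 0.00219). In both genes all orbital libraries lay above all dorsal ones. Tmeff2, a transmembrane protein with follistatin-like domains, and the glycosyltransferase gene Mgat4c rose by 1.20 and 1.51 on the log2 scale, and Arhgef28, a guanine nucleotide exchange factor, by 1.31. Tshr, the thyrotropin receptor, had 53.8, 50.3 and 39.7 CPM in orbital libraries, against 11.8, 2.35 and 9.30 CPM in dorsal libraries. Its dorsal level in row 2 was the lowest of the 6, and the fold change was 2.75 ± 0.40 (adjusted p = 0.0148). Tgm6, a transglutaminase, and Ppp1r17, a phosphatase inhibitor, had larger fold changes of 2.98 and 3.11 at low levels, with at most 4.15 and 3.10 CPM in orbital libraries and at most 0.713 and 0.475 CPM in dorsal libraries.

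Zbtb18, a repressor that cortical neurons need to mature, led the genes lower in orbital tissue. It had 629.7, 1145 and 746 CPM in dKO orbital libraries, against 1837, 3012 and 1858 CPM in dKO dorsal libraries. Row 2 was the highest in both regions, and the groups did not overlap (log2 fold change -1.46 ± 0.08, adjusted p = 0.000498). Pcsk2, a protease that matures peptide hormones, had 27.3, 50.8 and 22.5 CPM in orbital libraries, against 121, 146 and 106 CPM in dorsal libraries (-2.01 ± 0.15, adjusted p = 0.00219). Chrna7, the alpha 7 subunit of the nicotinic acetylcholine receptor, had 14.0, 12.0 and 6.36 CPM in orbital libraries, against 37.3, 40.6 and 18.3 CPM in dorsal libraries (-1.60 ± 0.13, adjusted p = 0.00219). Both genes lay lower in every orbital library than in any dorsal one. Igfbp5, which binds insulin-like growth factors, fell by 1.07, Osbpl1a, an oxysterol-binding protein, by 1.10, Arhgap29, a GTPase-activating protein, by 1.04 and the sulfotransferase gene Hs6st2 by 1.15. Fam19a2, a secreted neurokine, fell by 0.98 although its groups overlapped, since its 177 CPM in orbital row 2 was above the 166 CPM of dorsal row 1. Msx3, a homeobox gene known from the dorsal neural tube, had the largest fall at 4.30 on the log2 scale. It had 0.208, 0.321 and 0.219 CPM in orbital libraries, against 4.89, 11.7 and 0.911 CPM in dorsal libraries, where row 3 lay far below the others. Cldn3, a tight junction protein, and Pappa2, a protease of insulin-like growth factor binding proteins, fell by 3.16 and 2.22, and Ly6g6e by 2.63. These 3 were no longer called without row 1 (adjusted p = 0.0536, 0.0836 and 0.0684).

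**Figure D2:**
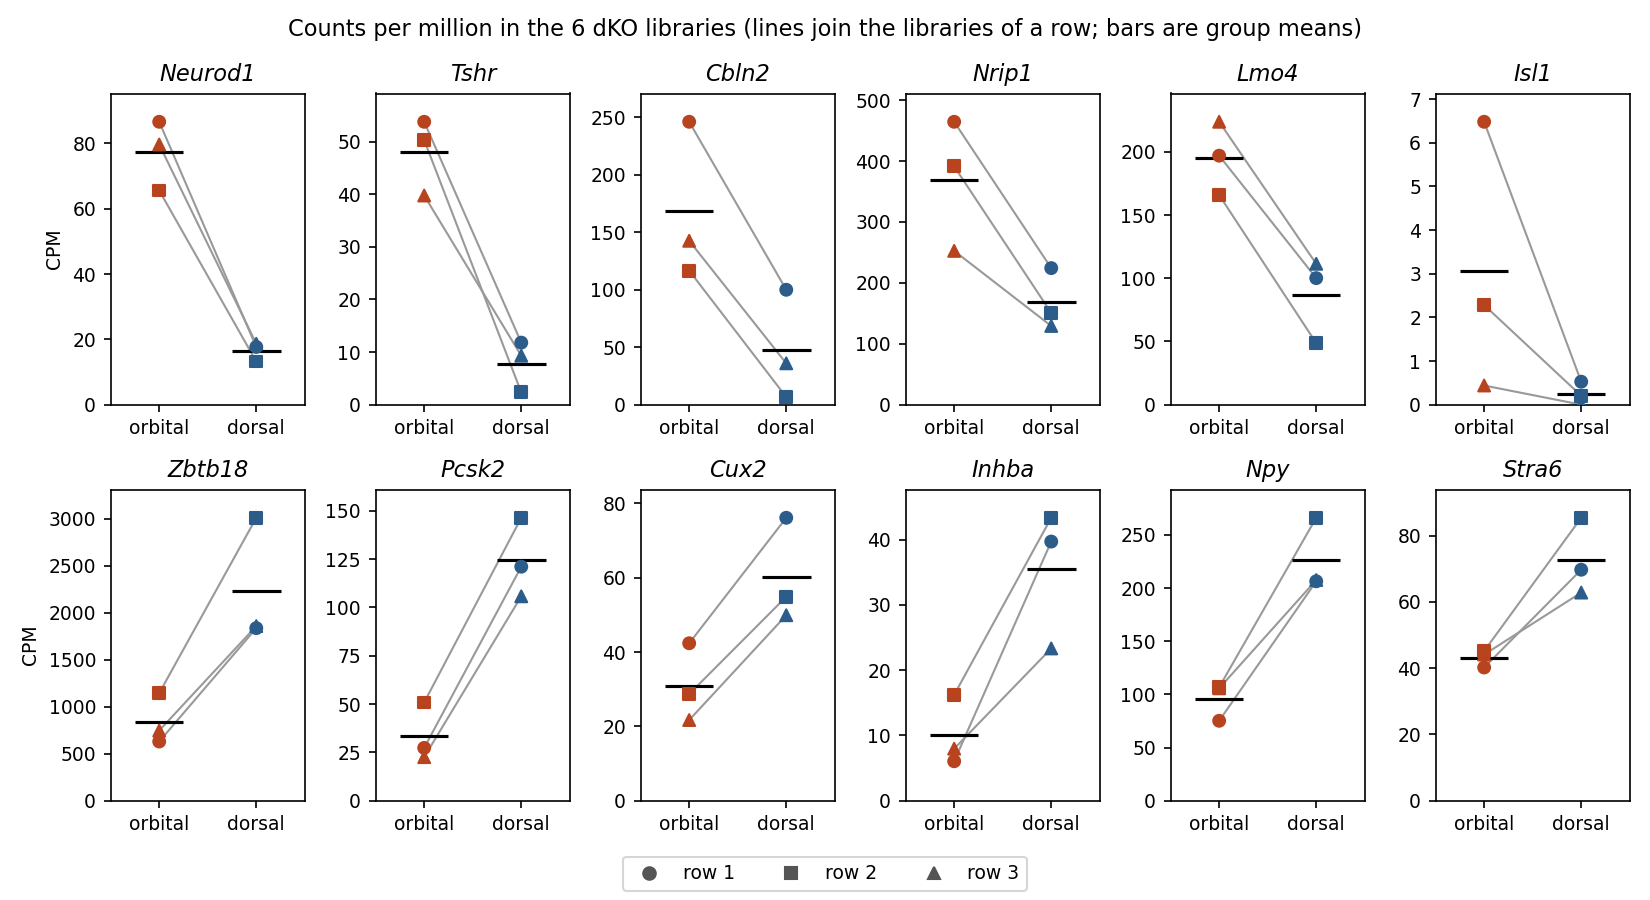
CPM (y axes, each from 0) of 12 genes in the 3 orbital (left) and 3 dorsal (right) dKO libraries, with lines joining the libraries of a row and bars at the group means. All lines of the upper panels slope down to dorsal tissue and all lines of the lower panels slope up, and Isl1 spans 0.439 to 6.48 CPM within the orbital group.

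Upper layer neurons are late-born cells that connect cortical areas. Of 17 of their genes tested, 6 fell in orbital tissue and none rose, with a median log2 fold change of -0.67 (range -1.93 to 1.09). Over all genes tested 0.998% fell and 0.621% rose, and every list count below is to be read beside these shares. A list with no call or a single call does not stand apart from them. In bulk tissue, fewer cells of a type and less RNA per cell cannot be told apart. Cux1, a homeobox gene of these neurons, had 178, 219 and 193 CPM in dKO orbital libraries, against 366, 360.5 and 414 CPM in dKO dorsal libraries (-0.99 ± 0.10, adjusted p = 0.00466). Its paralog Cux2 had 42.4, 28.7 and 21.7 CPM in orbital libraries, against 76.1, 54.9 and 49.9 CPM in dorsal libraries (-1.03 ± 0.11, adjusted p = 0.00479). Inhba, which encodes a subunit of activin, had 6.04, 16.2 and 7.96 CPM in orbital libraries, against 39.7, 43.4 and 23.3 CPM in dorsal libraries (-1.93 ± 0.24, adjusted p = 0.00922). No orbital library of these 3 genes reached the dorsal range. Lhx2, a LIM homeobox gene of the cortical field, fell by 0.87, and the adhesion gene Mdga1 by 0.77. Mdga1 was not called without row 1 (adjusted p = 0.0811). The summed level of the list was 1159 to 1554 CPM in orbital and 1882 to 2153 CPM in dorsal libraries.

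Genes of deep layer projection neurons were divided. Of 18 tested, 2 rose and 3 fell, with a median of 0.0048. Nfe2l3, a bZIP transcription factor, had 20.4, 25.5 and 21.3 CPM in dKO orbital libraries, against 44.4, 58.8 and 52.6 CPM in dKO dorsal libraries (-1.25 ± 0.10, adjusted p = 0.00219). Ntsr1, the neurotensin receptor that marks corticothalamic neurons, fell by 0.84, and Sox5, a regulator of corticofugal identity, by 0.93. Crym, a thyroid hormone binding protein, and Etv1, a transcription factor of layer 5, rose by 1.36 and 0.90. Apart from Nfe2l3, these calls were lost without row 1, with adjusted p of 0.0705 for Ntsr1, 0.180 for Sox5, 0.184 for Crym and 0.171 for Etv1, and that of Crym also without row 3 (0.0508). Bcl11b, Fezf2 and Tbr1, which define the main deep layer classes, did not pass, at 0.01, 0.52 and 0.06. The list summed to 1393 to 1809 CPM in orbital and 1376 to 1597 CPM in dorsal libraries, so genes that define cortical layers were abundant in both regions. Of 10 subplate genes, 1 fell, Cplx3, which encodes a complexin, with 0.284, 1.32 and 0.251 CPM in orbital libraries, against 1.46, 6.59 and 1.79 CPM in dorsal libraries (-2.50 ± 0.31, adjusted p = 0.00846). Row 2 was high in both regions, and the groups did not overlap. None of 10 Cajal-Retzius cell genes passed.

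Among 25 factors that pattern cortical areas, 3 rose and 4 fell, with a median of 0.06. Lmo4, a LIM-only cofactor of frontal cortex, had 197, 166 and 224 CPM in dKO orbital libraries, against 100.2, 48.7 and 111 CPM in dKO dorsal libraries (1.20 ± 0.16, adjusted p = 0.0101). Meis2, a homeobox gene that retinoic acid can induce, had 220.4, 227 and 201 CPM in orbital libraries, against 118, 84.0 and 138 CPM in dorsal libraries (0.92 ± 0.15, adjusted p = 0.0269). Each orbital library of Lmo4 and Meis2 was above each dorsal library, and the call of Meis2 was lost without row 1 (adjusted p = 0.101). The third gene that rose was Etv1. Emx1, a homeobox gene of the dorsal pallium, had 7.94, 9.16 and 6.71 CPM in orbital libraries, against 15.5, 23.2 and 13.2 CPM in dorsal libraries (-1.14 ± 0.15, adjusted p = 0.00986, and 0.0528 without row 1). Zbtb18, Lhx2 and Bhlhe22, a basic helix-loop-helix gene of caudal cortex, also fell, Bhlhe22 by 0.55. Pax6, Sp8 and Nr2f1, which grade along the front-to-back axis, did not pass, at 0.92, 1.08 and -0.68. Of 11 genes of claustrum, insula and lateral pallium, 2 rose and none fell. They were Synpr, a synaptic vesicle protein, at 0.85, and Nnat, an imprinted gene of immature neurons, at 0.66, and neither was called without row 1 (adjusted p = 0.0825 and 0.134).

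All 24 cell cycle genes tested had positive log2 fold changes, with a median of 0.38, and 2 of them passed. Top2a, the topoisomerase of dividing cells, had 77.0, 64.3 and 34.0 CPM in dKO orbital libraries, against 44.9, 38.6 and 24.6 CPM in dKO dorsal libraries (0.62 ± 0.10, adjusted p = 0.0278). Mcm5, a part of the replicative helicase, had 76.0, 48.4 and 32.8 CPM in orbital libraries, against 44.9, 29.7 and 24.2 CPM in dorsal libraries (0.60 ± 0.11, adjusted p = 0.0354). In both genes the groups overlapped while each row kept its direction, and neither was called without row 1 (adjusted p = 0.283 and 0.352). Of 19 progenitor genes (radial glia, intermediate progenitors) 1 rose, with 17 positive and a median of 0.44. Their summed level was 2127, 1950 and 1176 CPM in orbital and 1463, 1370 and 1285 CPM in dorsal libraries, so row 3 had less in orbital tissue. The gene that rose was Neurog2, a proneural gene that acts upstream of Neurod1, with 11.6, 5.94 and 4.58 CPM in orbital libraries, against 2.58, 1.76 and 2.17 CPM in dorsal libraries (1.65 ± 0.25, adjusted p = 0.0166, and 0.171 without row 1). Of 18 astrocyte genes, 2 rose, with 15 positive and a median of 0.35. They were Sparcl1, a secreted synapse-promoting protein, at 0.68, and Gjb6, connexin 30, at 0.72. Their adjusted p was 0.115 and 0.181 without row 1, and that of Gjb6 was 0.0610 without row 3. Summed astrocyte levels were 2827 to 3329 CPM in orbital and 2108 to 2296 CPM in dorsal libraries.

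**Figure D3:**
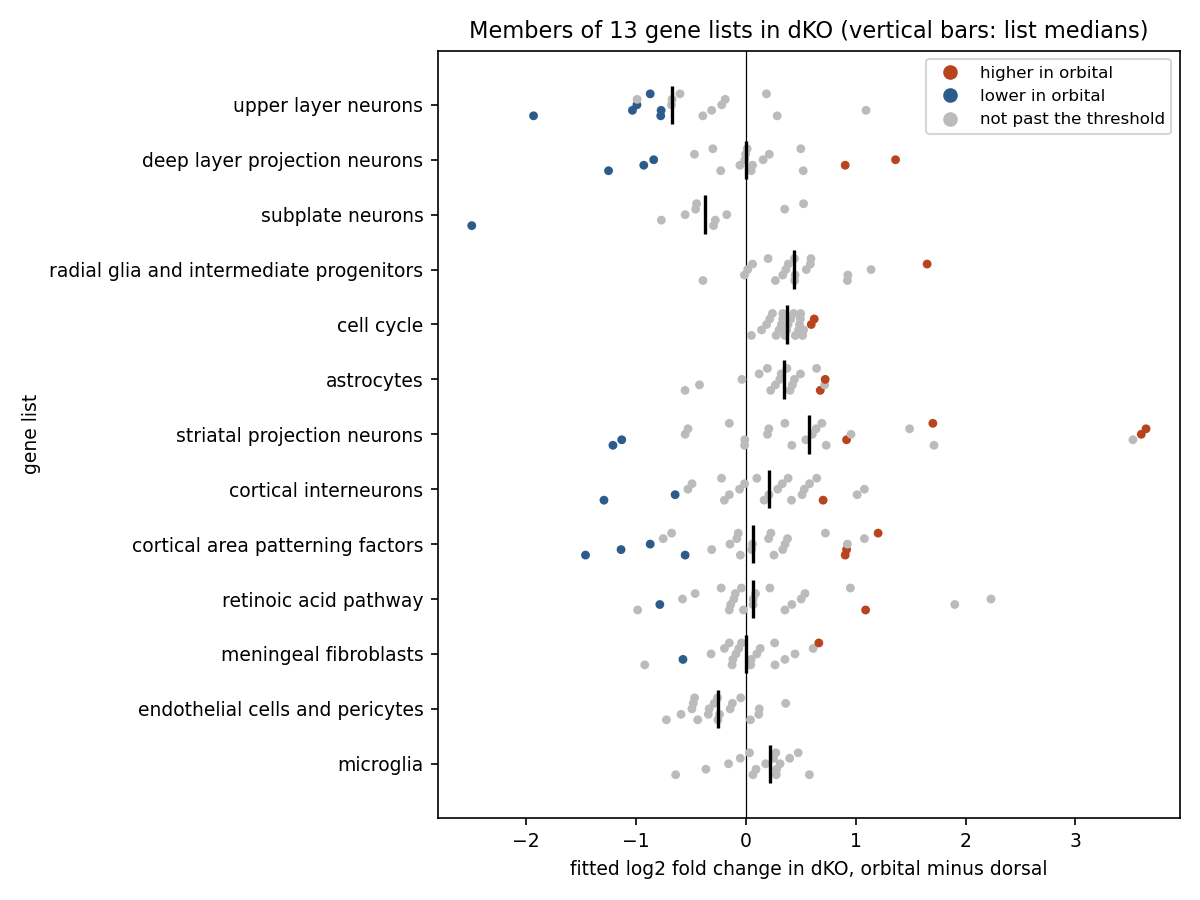
Fitted log2 fold change of orbital minus dorsal tissue in dKO pups (x axis) for the tested members of 13 gene lists (y axis), 1 point a gene, with a bar at each list's median. The median of upper layer genes lies at -0.67 and those of cell cycle and radial glia genes at 0.38 and 0.44, while striatal genes reach from -1.21 to 3.64.

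Genes known from striatal projection neurons moved in both directions. Of 24 tested, 4 rose and 2 fell, with a median of 0.58. Isl1, a LIM homeobox gene of the direct pathway and of cholinergic neurons, had 6.48, 2.28 and 0.439 CPM in dKO orbital libraries, against 0.526, 0.204 and 0 CPM in dKO dorsal libraries. The groups overlapped, since orbital row 3 lay below dorsal row 1, and the log2 fold change was 3.64 ± 0.43 (adjusted p = 0.00767, and 0.130 without row 1). Gpr6, an orphan receptor of the indirect pathway, had 5.87, 1.09 and 2.63 CPM in orbital libraries, against 0.747, 0.0511 and 0.0942 CPM in dorsal libraries (3.60 ± 0.43, adjusted p = 0.00777). Meis2 was also among the genes that rose. Ppp1r1b, which encodes the dopamine signalling protein DARPP-32 and is also made by deep layer cortical neurons, had 58.8, 35.8 and 44.1 CPM in orbital libraries, against 106, 87.2 and 97.3 CPM in dorsal libraries (-1.13 ± 0.10, adjusted p = 0.00372). Syndig1l, a synapse-associated membrane protein, fell by 1.21. The list summed to 484 to 634 CPM in orbital and 516 to 549 CPM in dorsal libraries, and no defining marker of it was at 0 in a whole group. Whether more basal forebrain tissue in the orbital samples has a part in Isl1 and Gpr6 was not tested. Of 9 septum and basal forebrain genes, Isl1 alone passed, and that list summed to 31.9 to 40.9 CPM in orbital and 29.4 to 32.3 CPM in dorsal libraries.

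Cpa3, Cma1 and Tpsb2 were among the genes with the largest rises. They are known from mast cells, for which no gene list was counted. Cpa3, mast cell carboxypeptidase, had 11.5, 5.04 and 6.93 CPM in dKO orbital libraries, against 0.984, 0.460 and 0.0314 CPM in dKO dorsal libraries (4.02 ± 0.49, adjusted p = 0.00777). Cma1, a chymase, had 6.84, 3.76 and 3.51 CPM in orbital libraries, against 0.916, 0.766 and 0.0628 CPM in dorsal libraries (3.09 ± 0.47, adjusted p = 0.0166). Tpsb2, a tryptase, had 5.27, 3.15 and 2.48 CPM in orbital libraries, against 0.679, 0.358 and 0 CPM in dorsal libraries (3.496 ± 0.55, adjusted p = 0.0205). In each of the 3 genes row 1 was highest in orbital tissue and the groups did not overlap, and Cma1 and Tpsb2 were not called without row 1 (adjusted p = 0.0758 and 0.0703). Cpa3 was called higher in orbital tissue in controls too, with 10.7, 0.260 and 15.8 CPM in control orbital and 3.19, 0.138 and 2.30 CPM in control dorsal libraries (adjusted p = 0.0122), while Cma1 and Tpsb2 gave 1.94 and 1.67 in controls and did not pass (adjusted p = 0.0768 and 0.0985). Medial dKO tissue had 6.90 ± 6.91 CPM of Cpa3 (SD, n = 3). Cd163, a scavenger receptor of macrophages at the brain's borders, had 11.8, 6.10 and 14.5 CPM in orbital libraries, against 4.05, 2.17 and 3.99 CPM in dorsal libraries (1.59 ± 0.18, adjusted p = 0.00627). Its call was lost in the edgeR fit of all 18 libraries (adjusted p = 0.319). None of 16 microglia genes passed, with a median of 0.22, and their summed level was 231 to 325 CPM in orbital and 224 to 291 CPM in dorsal libraries. None of 19 genes of endothelial cells and pericytes passed, with a median of -0.26, and none of 10 olfactory bulb, 9 thalamus, 8 hippocampus, 6 choroid plexus, 6 red blood cell or 14 oligodendrocyte precursor genes. Red blood cell genes nonetheless summed to 2112, 829.9 and 2400 CPM in orbital libraries, against 1694, 955 and 1018 CPM in dorsal libraries. Of 10 olfactory ensheathing glia genes, 1 fell, Npy, which interneurons also express, and the ensheathing glia gene Foxd3 was at 0 in all 6 libraries.

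**Figure D4:**
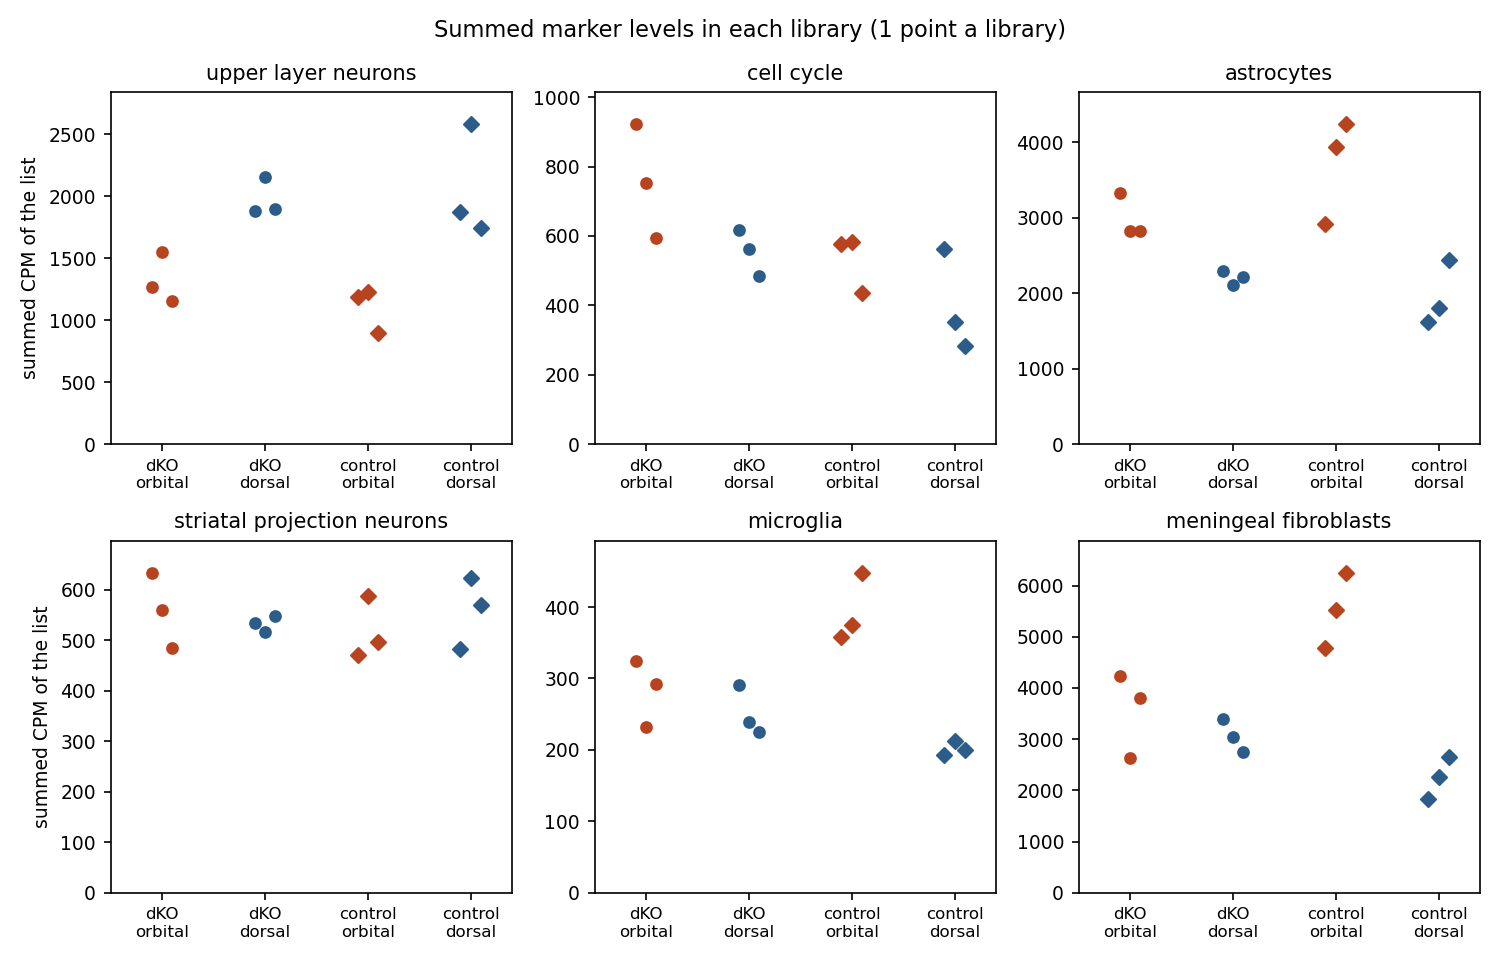
Summed CPM of 6 gene lists (y axes, from 0) in each orbital and dorsal library of dKO (circles) and control pups (diamonds). Upper layer sums are lower and astrocyte sums higher in orbital tissue in both genotypes, and meningeal sums are 2633 to 4242 CPM in dKO orbital and 2751 to 3390 CPM in dKO dorsal libraries, against 4774 to 6256 CPM in control orbital and 1841 to 2648 CPM in control dorsal libraries. The meningeal sums include Nnat, which is also a gene of immature neurons.

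Adhesion and guidance genes showed a mixed pattern. Of 25 cadherins and protocadherins, 3 rose and 3 fell, with a median of 0.05. Cdh7 had 26.2, 11.8 and 15.02 CPM in dKO orbital libraries, against 8.64, 5.16 and 3.96 CPM in dKO dorsal libraries (1.53 ± 0.17, adjusted p = 0.00665). Cdh6, a related type II cadherin, had 22.8, 36.7 and 17.96 CPM in orbital libraries, against 58.8, 81.5 and 52.7 CPM in dorsal libraries (-1.40 ± 0.11, adjusted p = 0.00219). The groups lay apart in both genes, in opposite directions. Pcdh18 and Pcdh17 rose by 0.92 and 0.82, and Pcdh7 and Pcdh9 fell by 0.92 and 0.72. Without row 1 Pcdh17 and Pcdh9 were not called (adjusted p = 0.171 and 0.105). Of 20 genes of netrin, slit and related guidance, 2 rose and 2 fell. Flrt2, a repulsive ligand of Unc5 receptors, had 286, 219.8 and 132 CPM in orbital libraries, against 125, 63.0 and 74.8 CPM in dorsal libraries (1.23 ± 0.17, adjusted p = 0.0110). Slit1, a repellent, rose by 0.75, while its receptor Robo2 fell by 0.78 and the netrin and Flrt receptor Unc5c by 0.78. Every orbital library of Flrt2 and Slit1 was above every dorsal one, and Slit1 and Unc5c were lost without row 1 (adjusted p = 0.171 and 0.135). Of 19 Eph receptors and ephrins, Epha3 alone passed, falling by 0.87 (adjusted p = 0.0300, and 0.0836 without row 1), and none of 24 semaphorins, plexins and neuropilins did.

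Of 33 synaptic organizers, 2 rose and none fell, with a median of 0.04. Cbln2, a secreted protein that bridges neurexins to glutamate delta receptors, had 246, 116 and 142 CPM in dKO orbital libraries, against 99.9, 6.61 and 35.9 CPM in dKO dorsal libraries. The dorsal level of row 2 was far below that of the other rows, and the log2 fold change of 2.33 ± 0.45 passed narrowly (adjusted p = 0.0457). It was 1.58 without row 2. The call was kept without rows 1, 2 and 3 in turn (adjusted p = 0.0226, 1.24e-05 and 0.0374). Tenm4, a teneurin, rose by 0.80 (adjusted p = 0.0136, and 0.156 without row 1). The counts that follow are small, where over all genes tested 0.998% fell and 0.621% rose, and say little about a list as a whole. Of 36 genes of glutamate receptors and the postsynaptic scaffold, 2 fell and none rose. They were the group II metabotropic receptors Grm2, with 30.7, 29.2 and 23.6 CPM in orbital libraries, against 83.8, 51.7 and 48.3 CPM in dorsal libraries (-1.15 ± 0.14, adjusted p = 0.00767), and Grm3, which fell by 0.50 (adjusted p = 0.0294, and 0.285 without row 1). Of 30 potassium channel genes, Kcnh1 alone passed, falling by 1.03 (adjusted p = 0.0205, and 0.139 without row 1). Of 25 genes of presynaptic release, Synpr alone passed.

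Among 15 neuropeptide genes 1 rose and 1 fell, both made by cortical interneurons. Npy, neuropeptide Y, had 75.1, 107 and 106 CPM in dKO orbital libraries, against 206, 266 and 208 CPM in dKO dorsal libraries (-1.29 ± 0.11, adjusted p = 0.00237). Sst, somatostatin, had 46.9, 45.9 and 53.4 CPM in orbital libraries, against 25.5, 26.1 and 36.8 CPM in dorsal libraries (0.70 ± 0.11, adjusted p = 0.0197, and 0.191 without row 1). The groups did not overlap in either gene. Of 23 interneuron genes tested, 1 rose and 2 fell, with a median of 0.21. Of 27 neuromodulator receptors, Chrna7 and the orexin receptor gene Hcrtr2 fell, Hcrtr2 by 1.38 (adjusted p = 0.0211, and 0.182 without row 1). None of 13 GABA-A receptor subunits, 36 Wnt, Bmp, Fgf and Notch genes, 15 immediate early genes, 14 stress genes, 17 cholesterol synthesis genes, 24 nuclear respiratory chain genes, 24 ribosomal protein genes or 11 mitochondrially encoded protein genes passed. With 1.62% of all genes tested called, the lack of a call in lists of this size does not set them apart.

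Of the 24 retinoic acid pathway genes, 23 were tested, and 1 rose and 1 fell in dKO orbital tissue, with a median of 0.07. On the supply side, Stra6, the membrane receptor through which cells take up retinol from its carrier, had 40.2, 45.1 and 44.1 CPM in dKO orbital libraries, against 69.7, 85.3 and 62.8 CPM in dKO dorsal libraries. The groups lay apart, with a log2 fold change of -0.78 ± 0.11 (adjusted p = 0.0109). Its call was lost without row 1 (adjusted p = 0.0986) and in the edgeR fit of all 18 libraries (adjusted p = 0.640). The retinol carrier Rbp4 gave 0.54, and Rdh10 and Dhrs3, which turn retinol to retinal and back, gave -0.58 and -0.46, none of them past the threshold. Aldh1a2, the main enzyme of retinoic acid synthesis in the meninges, had 75.6, 71.2 and 113 CPM in orbital libraries, against 79.5, 95.7 and 101 CPM in dorsal libraries (-0.15 ± 0.12, adjusted p = 0.653), and the groups overlapped. Its relatives Aldh1a1 and Aldh1a3 gave -0.98 and 1.90 at levels below 6 CPM (adjusted p = 0.179 and 0.151). The binding proteins Crabp1, Crabp2 and Fabp5 gave 0.50, -0.04 and -0.02.

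Of the enzymes that break retinoic acid down, Cyp26a1 had 2.67, 1.54 and 1.47 CPM in dKO orbital libraries, against 0.763, 0.0255 and 0.597 CPM in dKO dorsal libraries. The groups did not overlap, but the difference of 2.23 ± 0.62 did not pass (adjusted p = 0.152). Cyp26b1 had 23.5, 26.2 and 10.2 CPM in orbital libraries, against 13.2, 1.33 and 27.1 CPM in dorsal libraries (0.95 ± 0.87, adjusted p = 0.712), with rows 1 and 2 in 1 direction and row 3 in the other. Cyp26c1 was too low to test. Among receptors, Rarb and Rxrg gave 0.36 and 0.42 (adjusted p = 0.599 and 0.766), Rara, Rarg, Rxra and Rxrb gave 0.07, 0.09, 0.22 and -0.14, and none passed. The rise was in Nrip1, a corepressor that liganded nuclear receptors recruit, with 465, 391 and 253 CPM in orbital libraries, against 224, 151 and 129 CPM in dorsal libraries (1.09 ± 0.10, adjusted p = 0.00373). Row 1 was highest and row 3 lowest in both regions, and no orbital library fell into the dorsal range. The corepressor Ncor1 and the coactivator Ncoa1 gave -0.11 and -0.22.

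RAR and RXR pairs bind direct repeats of a short half-site, spaced by 5 or 2 bases. The promoters of Cyp26a1 and Rarb are shown because they are the only retinoic acid pathway genes among those named here that hold such a repeat in the 250 bases before the start (RefSeq, GRCm38.p6), and Cyp26a1 breaks down retinoic acid while Rarb is a mutated gene. Both are written 5′ to 3′ on the strand of the gene, Cyp26a1 from chr19:37697558-37697807 (plus strand) and Rarb from chr14:16575477-16575726 (minus strand), with the half-sites in capitals.
Cyp26a1: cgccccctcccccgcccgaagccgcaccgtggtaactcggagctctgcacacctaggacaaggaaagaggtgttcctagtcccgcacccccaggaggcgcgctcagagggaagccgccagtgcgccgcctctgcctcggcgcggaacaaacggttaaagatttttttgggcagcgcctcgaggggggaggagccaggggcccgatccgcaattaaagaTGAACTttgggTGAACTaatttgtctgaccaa
Rarb: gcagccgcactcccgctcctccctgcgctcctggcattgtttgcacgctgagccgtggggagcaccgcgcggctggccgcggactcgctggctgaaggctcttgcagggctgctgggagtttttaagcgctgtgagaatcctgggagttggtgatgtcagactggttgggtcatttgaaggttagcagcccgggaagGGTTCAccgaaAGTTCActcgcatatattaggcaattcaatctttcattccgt
The half-sites searched were AGGTCA and AGTTCA, together with GGTTCA and also GGGTCA, in any pair, on both strands. The repeat of Cyp26a1 begins at position -32 and reads on the opposite strand, and that of Rarb begins at -53. A repeat with 5 spacer bases was in 7 of 12040 tested genes with a promoter in the table (0.0581%) and in 28 of all 27025 genes in it (0.104%). With 2 spacer bases these were 10 (0.0831%) and 55 (0.204%). Of the called genes, 74 higher and 133 lower in orbital tissue had a promoter in the table, and 0 of them held either repeat. That says only that these letters are not in this window.

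In control pups the same comparison called 2554 of 16595 genes (15.4%; 1043 higher, 6.29%, and 1511 lower, 9.11%), against 279 in dKO pups. The control count was 127 without row 1, 2956 without row 2 and 527 without row 3, and 0 without the row as a block, where 2181 genes had an unadjusted p under 0.05. The SD of the fitted log2 fold changes over genes was 0.38 in dKO and 0.63 in controls, and the median SE of a fold change was 0.15 in dKO and 0.19 in controls. The comparisons share no library. Of 106 genes higher in dKO orbital tissue and tested in both, 43 were higher in controls too (40.6%), 0 were lower, and the median was 0.92 in dKO and 0.52 in controls. Of 172 genes lower in dKO orbital tissue, 116 were lower in controls (67.4%), and the median was -0.80 in dKO and -0.83 in controls. Read from the other side, those 43 genes were 4.17% of 1032 genes higher in controls, whose median was 0.18 in dKO and 0.95 in controls. The 116 were 7.68% of 1510 genes lower in controls, whose median was -0.18 in dKO and -0.75 in controls. Across the 16276 genes tested in both, the fold changes had a Pearson r of 0.39 and a Spearman rho of 0.39, where genes are not independent replicates. Of upper layer genes, more were lower than higher in orbital tissue in both genotypes, with 6 of 17 lower, 0 higher and a median of -0.67 in dKO and 13 of 17 lower, 1 higher (Calb1, a calcium-binding protein) and a median of -1.16 in controls. Of the leading genes, Neurod1 gave 2.19 in dKO and 1.44 in controls, Zbtb18 gave -1.46 in dKO and -1.82 in controls, and Angpt1 gave 1.45 in dKO and 1.41 in controls, and the test of the difference called none of these.

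The regional difference itself differed between dKO and control pups for 102 of 17891 genes (0.570%; edgeR quasi-likelihood interaction test, adjusted p under 0.05), with 27 more positive (0.151%) and 75 more negative in dKO (0.419%). These calls were not stable. None were left without row 1 or row 2 of dKO, without row 1 of controls or in a fit of all 18 libraries, 49 were called without row 3 of dKO, 33 without row 3 of controls and 777 without row 2 of controls, and an unadjusted p under 0.05 was reached by 3043 genes. Stra6 had 40.2, 45.1 and 44.1 CPM in dKO orbital and 69.7, 85.3 and 62.8 CPM in dKO dorsal libraries, against 78.2, 91.7 and 104 CPM in control orbital and 38.4, 32.7 and 54.5 CPM in control dorsal libraries. Orbital tissue was thus the lower region in every dKO pair and the higher in every control pair, and the difference was -1.82 ± 0.18 (adjusted p = 0.0161). Fam180a, a secreted protein of little known function, had 7.65, 12.4 and 12.4 CPM in dKO orbital and 27.7, 39.4 and 26.4 CPM in dKO dorsal libraries, against 9.19, 18.7 and 17.4 CPM in control orbital and 5.49, 9.15 and 11.8 CPM in control dorsal libraries (-2.25 ± 0.25, adjusted p = 0.0161). Besides Stra6 and Fam180a, Nupr1, Mfap4 and Bmp6 were called in opposite directions in the genotypes, lower in orbital tissue in dKO and higher in controls. The dKO call of Mfap4 was lost without row 1 (adjusted p = 0.148) and in the edgeR fit of all 18 libraries (adjusted p = 0.164). Slc47a1, an exporter of organic cations, had 2.31, 3.02 and 1.57 CPM in dKO orbital and 6.43, 13.5 and 10.9 CPM in dKO dorsal libraries, against 11.8, 12.4 and 13.8 CPM in control orbital and 5.17, 5.73 and 11.1 CPM in control dorsal libraries (-2.92 ± 0.37, adjusted p = 0.0176). In the other direction, Nrip1 had 286, 189 and 135 CPM in control orbital and 249, 192 and 148 CPM in control dorsal libraries, where the groups overlapped, and the difference was 1.18 ± 0.15 (adjusted p = 0.0176). Flrt2 and Lhx2 also had more positive differences in dKO, by 1.43 and 1.07. Flrt2 rose in dKO orbital tissue, at 1.23. Lhx2 fell there, at -0.87, so its positive difference marks a smaller fall in dKO than in controls.

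Over all genes tested, 1.62% were called in dKO and 15.4% in controls, so fewer calls in dKO are not particular to a list. Of 33 synaptic organizers, 2 rose and 0 fell in dKO, where in controls 1 was higher and 15 were lower in orbital tissue. Of 36 genes of glutamate receptors and the postsynaptic scaffold, 2 fell in dKO and 17 were lower in controls. Cell cycle genes had 2 calls in each genotype. Several non-neuronal lists also had fewer genes called in dKO than in controls. Of 20 meningeal fibroblast genes tested in dKO, 1 rose, Nnat, and 1 fell, Bmp6, with a median of 0.0021, where in controls 17 of the 20 were higher in orbital tissue, with a median of 1.12. Of 16 microglia genes, none passed in dKO (median 0.22), where in controls 11 were higher in orbital tissue (median 0.92), and the test of the difference called 1. Of olfactory ensheathing glia genes, none of 10 rose in dKO (median -0.16), where in controls 6 of 12 were higher (median 1.01), and the test of the difference called 2, both more negative in dKO. Red blood cell genes had none of 6 called in dKO (median 0.41) and 4 of 6 higher in controls (median 1.19), and choroid plexus genes none of 6 in dKO (median 0.29) and 2 of 5 higher in controls (median 1.67), with no call in the test of the difference for either list. Bmp6, a bone morphogenetic protein, had 40.3, 41.5 and 62.7 CPM in dKO orbital and 54.7, 68.5 and 84.8 CPM in dKO dorsal libraries, against 57.5, 81.1 and 66.8 CPM in control orbital and 20.1, 32.9 and 41.0 CPM in control dorsal libraries. Its call in dKO was lost without row 1 (adjusted p = 0.171). The test of the difference called 7 of the 20, all more negative in dKO. They were Bmp6, Aldh1a2, Crabp2, Ptgds, Slc6a13, Dcn and Lum. Crabp2, a carrier of retinoic acid to the nucleus, had 16.4, 9.64 and 9.37 CPM in dKO orbital and 15.5, 10.3 and 9.26 CPM in dKO dorsal libraries, against 26.9, 36.6 and 39.3 CPM in control orbital and 7.14, 10.5 and 16.6 CPM in control dorsal libraries (-1.58 ± 0.22, adjusted p = 0.0218). Aldh1a2 had 83.4, 109 and 126 CPM in control orbital and 34.1, 40.2 and 55.3 CPM in control dorsal libraries, which did not overlap, and the difference was -1.35 ± 0.17 (adjusted p = 0.0176). The summed meningeal level was 4242, 2633 and 3803 CPM in dKO orbital and 3390, 3042 and 2751 CPM in dKO dorsal libraries, against 4774, 5524 and 6256 CPM in control orbital and 1841, 2259 and 2648 CPM in control dorsal libraries. Row 2 was thus the only dKO row with less in orbital than in dorsal tissue. These sums include Nnat, the gene of this list that rose in dKO, which is also a gene of immature neurons. Nnat had 1418, 900 and 1222 CPM in dKO orbital and 749, 641 and 749 CPM in dKO dorsal libraries. In controls it had 1561, 910 and 2057 CPM in orbital and 546, 612 and 679 CPM in dorsal libraries. The sums are thus not a measure of meninges alone. How much meninges stayed on each sample, and its part in Stra6, Aldh1a2, Crabp2 and the other genes of this list, was not tested.

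**Figure D5:**
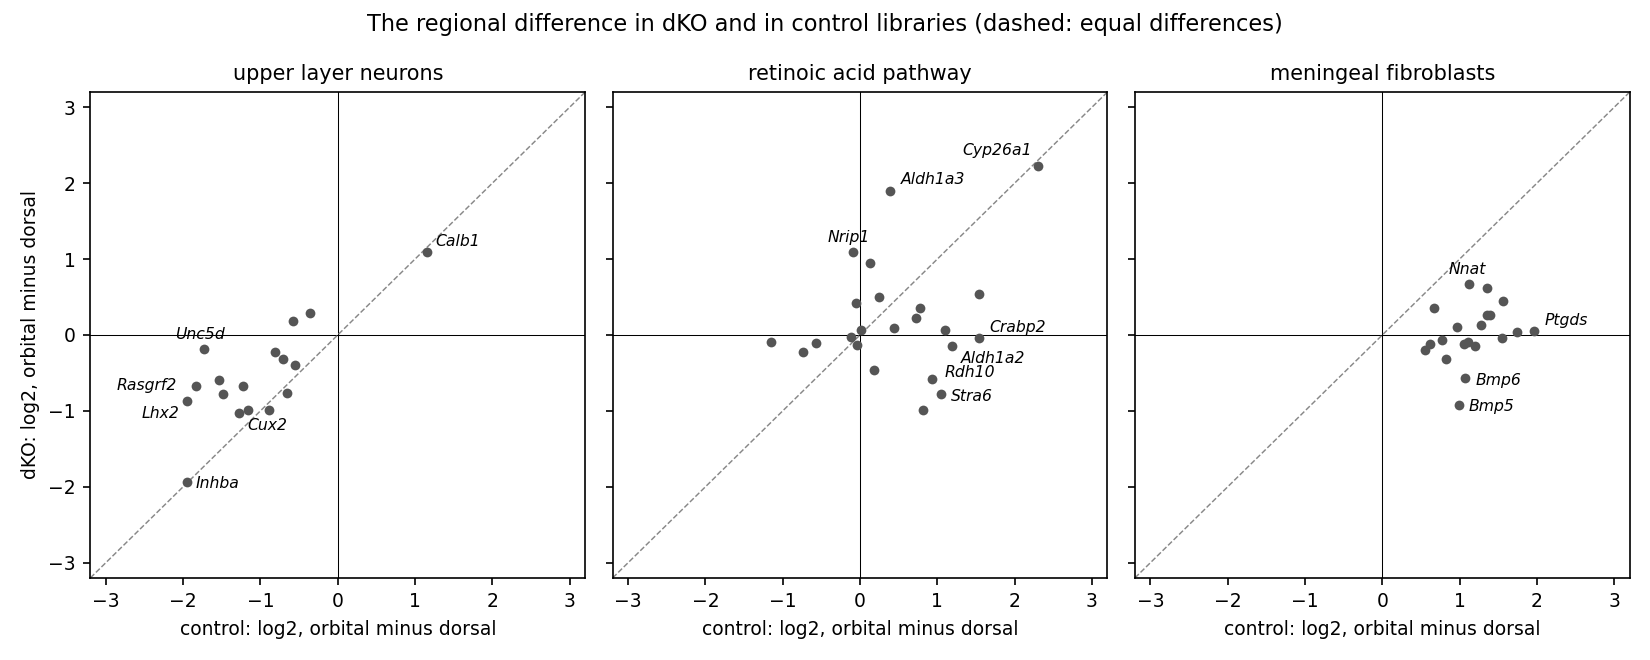
Log2 fold change of orbital minus dorsal tissue in dKO (y axis) against that in control pups (x axis) for members of 3 gene lists tested in both, with a dashed line where the 2 are equal. Upper layer genes lie mostly in the lower left of the plot, and meningeal genes spread along the x axis near 0 on the y axis, where their median is 0.0021 in dKO and 1.12 in controls.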

How the data were processed

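The values used are raw counts per gene as deposited, in fragments. Per the file headers, the authors counted read pairs with featureCounts 1.6.2, ignoring strand, on Ensembl 94 gene models of GRCm38, and per the submitters' processing notes reads were aligned with STAR 2.6. Without strand, overlapping and antisense genes cannot be told apart. Of the columns, 6 matched no sample and were not read. Symbols were matched for 54409 of 54532 genes, and promoters come from RefSeq (GRCm38.p6).

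Counts of the 6 dKO libraries were tested by quasi-likelihood F tests with the row as a block (edgeR 4.0.16, R 4.3.3). Scaling was by TMM, genes were kept by filterByExpr (minimum count 10, total 15), and p was adjusted over all genes tested by Benjamini-Hochberg, threshold 0.05. The 6 control libraries and the 12 together (interaction) were fitted likewise. CPM is counts per 1e+06 counted fragments, and ± marks the SE of a fitted log2 fold change unless SD is named. The rows were set by title prefix and index. Deviations of same-row libraries from their group means correlated at 0.707, 0.360 and 0.498 in dKO, and those of different rows at -0.512 to -0.011. Since each region was centred on its own mean, positive same-row values push the others below 0, and these are no separate support. Libraries of a row also share a title prefix and the Xist and Ddx3y pattern, and what makes them alike was not tested. Replicates differed by more than sampling noise (chi-square per degree of freedom 41.8 to 125).

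The comparison, its genes and the 41 gene lists were chosen with earlier results of these data known, and list members were counted with no set test. Named genes are, in each direction, the 12 with the lowest p and the 8 with the largest fold change among called genes that averaged 1 CPM or more, with 3 pairs of the same sign and a symbol of no predicted, Y-linked or Xist gene. Added to these are up to 6 called members a list (2 of the lowest p where none was called), all retinoic acid pathway genes and the 8 interaction genes of lowest p. Bcl11b, Bhlhe22, Calb1, Fezf2, Tbr1, Pax6, Sp8, Nr2f1, Nupr1, Foxd3, Ptgds, Slc6a13, Dcn and Lum are named outside this rule, after their values were seen. Some genes that the rule names are not reported here, though list counts include them. Alternatives were DESeq2 1.42.0, limma-voom 3.58.1, RLE scaling, no low-count filter, fits without the block, with all 18 or the 9 dKO libraries, without each row, and a threshold of 0.01. On simulated counts the dKO fit recovered 51% of genes changed 2-fold and 100% changed 4-fold, with 2 unchanged genes called, and the interaction 16% and 97%, with 12. The simulation gave every gene the same dispersion and had no row effect. Changes were planted only in genes above the median level. These rates therefore check the code and do not measure detection or false calls in the real libraries. Figures were drawn with matplotlib 3.10.9.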

Additional observations from a re-analysis of the deposited data

Results flagged for a closer look

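For 16 named genes the orbital minus dorsal difference itself differed between dKO and control pups (edgeR interaction test, adjusted p under 0.05). In dKO minus control terms it was -2.92 for Slc47a1, -2.25 for Fam180a, -1.82 for Stra6, -1.64 for Bmp6, -1.58 for Crabp2, -1.54 for Vtn, -1.51 for Rdh10, -1.50 for Tmem119, -1.49 for Bmp7, -1.40 for Slc22a6, -1.35 for Aldh1a2, -1.33 for Mfap4 and -1.22 for Cxcl12. It was positive for Flrt2 at 1.43, Nrip1 at 1.18 and Lhx2 at 1.07, where Lhx2 fell less in dKO orbital tissue than in controls. Vtn, Slc22a6, Bmp7 and Cxcl12 were higher in orbital tissue in controls, at 1.25, 1.08, 1.11 and 0.89, and gave -0.29, -0.32, -0.38 and -0.33 in dKO, none past the threshold there. Tmem119, listed as a microglia marker, gave -0.64 in dKO (adjusted p = 0.0516) and 0.86 in controls. All 16 kept their sign in every alternative run, but these runs reuse the same libraries. None of the 16 was called without the row as a block or in the fit of all 18 libraries. The same held without row 1 or row 2 of dKO and without row 1 of controls.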

How the results depend on the processing

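Without the row as a replicate block, calls fell to 1 in dKO, 0 in controls and 0 for the interaction (769, 2181 and 762 at unadjusted p under 0.05), and called list members to 0 of 53. In dKO no filter on low counts gave 1103 calls, DESeq2 629, all 18 libraries 91, the 9 dKO libraries 171, leaving out a row 74 to 566 and a threshold of 0.01 gave 71, with 190, 125, 23, 33, 22 to 115 and 22 list members. In controls leaving out a row gave 127 to 2956 calls. For the interaction no filter gave 1479 calls, DESeq2 1165, limma-voom 293, all 18 libraries 0 (2363 at unadjusted p under 0.05) and leaving out a row 0 to 777. RLE size factors gave 281 calls in dKO. The cause was not tested. No called gene changed sign in any of these. All 75 called named genes kept their sign, and 46 lost the call in at least 1 fit with the block. All 279 called genes had the same sign in the 3 pairs, and these fits reuse the same libraries. Kept signs were therefore largely fixed in advance and are no separate support. Some genes called without each row in turn were not called in the edgeR fit of all 18 libraries. Examples are Cd163, Slc47a1, Robo2 and Cpa3 (adjusted p = 0.319, 0.423, 0.147 and 0.114). Some uncalled pathway genes turned sign. Leaving out a row gave -0.18 to 1.15 for Crabp1, -0.21 to 0.85 for Rxrg, -0.31 to 2.24 for Cyp26b1, -0.013 to 0.20 for Rara, -0.087 to 0.33 for Rarg and -0.11 to 0.077 for Fabp5. Genes under about 1 CPM rest on few fragments, and 3 rows limit the detection of 2-fold changes.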

Other observations

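Some further genes called in dKO are given here, chosen after their values were seen. The mitochondrial ribosomal RNAs mt-Rnr1 and mt-Rnr2 were higher in orbital tissue, by 0.58 and 0.54 on the log2 scale, with overlapping groups. Acvr2a, an activin receptor, rose by 0.65, while the bone morphogenetic protein receptor Bmpr1b, the TGF-beta receptor Tgfbr1 and the activin antagonist Fst gave -1.07, -1.10 and -1.92. Fst gave 0.65 in controls, and the difference between genotypes did not pass (adjusted p = 0.116, edgeR interaction test). Mef2c and Bcl11a, transcription factors of cortical neurons, gave -0.67 and -0.80, and the neuronal splicing factors Rbfox1 and Rbfox3 gave -0.56 and -0.58. These genes belong to no list that was counted as a group here. Of all 279 genes called in dKO, 71 were also called without each row in turn. Whether the genes of this paragraph are among the 71 is not given here.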
